A study of Homo sapiens with 24 samples.

Results

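The 40 genes described here belong to 2 linked stress programmes, the unfolded protein response of the endoplasmic reticulum (ER) and the programme of the transcription factor ATF4. They were found by matching a list of 40 gene symbols to the gene column, and each was present once in all 4 deposited tables, among 58174 genes. 17 of them form an ATF4 arm, with 3 transcription factors, 6 stress effectors and feedback genes, 6 enzymes of amino acid and one-carbon synthesis and 2 subunits of an amino acid transporter. The other 23 form an ER arm, with 3 membrane sensors and XBP1, 13 chaperones and folding enzymes and 6 genes of ER-associated degradation.

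When unfolded proteins gather in the ER, the sensors ERN1 (IRE1), EIF2AK3 (PERK) and ATF6 send signals to the nucleus. ERN1 splices the XBP1 mRNA, ATF6 is cleaved to an active factor, and both routes raise ER chaperones and degradation genes. EIF2AK3 phosphorylates the translation initiation factor eIF2alpha, which slows general translation but favours translation of the ATF4 mRNA. Other eIF2alpha kinases, such as the amino acid sensor GCN2, reach ATF4 without any ER signal, and ATF4 then induces genes for amino acid synthesis and uptake. Much of this control acts on translation, splicing or protein cleavage, which a measurement of total mRNA per gene does not see.

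The libraries came from the human cancer cell lines A549 (lung cancer), ES2 (ovarian cancer), MV3 (melanoma) and PANC1 (pancreatic cancer), each treated either with control siRNA (siC) or with pooled siRNAs to IGF2BP1 (siI1), an RNA-binding protein that protects many mRNAs from decay. A549, ES2 and MV3 cells were harvested after 72 h and PANC1 cells after 96 h, so line and time cannot be told apart for PANC1. Each of the 8 groups held 3 libraries, which the study's methods call biological replicates, and each line stood for its cancer by 1 cultured cell line, in which the knockdown was transient and partial. Values are FPKM (fragments scaled to gene length and sequencing depth) from total RNA depleted of ribosomal RNA.

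IGF2BP1 itself fell in all 4 lines, from 39.7 ± 0.0742 to 15.6 ± 0.674 FPKM (mean ± SD, n = 3) in A549 and from 13.1 ± 0.915 to 4.14 ± 0.102 in ES2. In MV3 it went from 9.26 ± 0.325 to 2.91 ± 0.126, and in PANC1 from 11.1 ± 0.1505 to 2.78 ± 0.080. The libraries held 3105215 to 20082702 reads assigned to genes, fewest in A549 and most in MV3. A small cytoplasmic RNA, RN7SL2, took 50.1% to 56.2% of the summed FPKM in PANC1 siC libraries and 62.0% to 64.6% in PANC1 siI1 libraries. The paper lists A549 as lung adenocarcinoma, ES2 as ovarian clear cell adenocarcinoma, MV3 as amelanotic melanoma and PANC1 as pancreatic ductal adenocarcinoma. General markers of these tissues were mostly low or missing in the siC libraries. Which of them these subtypes should express was not examined. The lung markers NKX2-1, SFTPB, SFTPC and SFTPA1 were all at 0 in A549. MUC16 was at 0, WT1 at 0.120 and PAX8 at 0.157 FPKM in ES2, and SOX10 and TYR were at 0 with MITF at 0.319 FPKM in MV3. In PANC1 the ductal keratin KRT19 reached 617 FPKM and PDX1 1.70, while the acinar markers CPA1, PRSS1 and PTF1A were at 0. KRT19 was also at 117 FPKM in A549. Of 6 markers of leukocytes, endothelium and hepatocytes, none exceeded 0.321 FPKM as a siC mean in any line.

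Knockdown was compared with control within each line by limma on log2(FPKM + 0.5), and a gene was called where its Benjamini-Hochberg adjusted p over all genes tested in that line was under 0.05. All fold changes below are on that log2 scale, siI1 minus siC, with their standard error. The filter, a mean of at least 0.5 FPKM, kept all 40 genes in ES2 and MV3 and 39 each in A549 and PANC1. CHAC1 in A549 and VLDLR in PANC1 were too low to be tested. Over the 158 tests of a gene in a line, 66 passed the threshold, 48 lower and 18 higher. The shares lower in A549, ES2, MV3 and PANC1 were 23.1%, 35%, 40% and 23.1%, against 7.83%, 13.0%, 19.5% and 13.4% of all genes tested. The shares higher were 15.4%, 5%, 10% and 15.4%, against 5.93%, 10.5%, 16.3% and 11.3%. In these bulk samples, fewer cells of a kind and less RNA per cell cannot be told apart.

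Nearly all ATF4 arm calls were lower in ES2 and MV3, and in A549 and PANC1 calls went both ways. In ES2, 11 of 17 ATF4 arm genes were called lower and 0 higher, where 13.0% of all genes tested were called lower and 10.5% higher. No ATF4 arm gene in ES2 was positive at an unadjusted p under 0.05 either (0 genes), and limma voom on the recovered reads also called 0 higher. MV3 had 11 of 17 lower and 1 higher, against 19.5% and 16.3% of all genes tested. A549 had 5 of 16 lower and 4 higher, against 7.83% and 5.93%, and PANC1 had 2 of 16 lower and 5 higher, against 13.4% and 11.3%. Without siC replicate 2 or 3 the A549 count lower went from 5 to 3. In PANC1 the count lower went to 0 without siC replicate 1 and to 1 without siC replicate 2 or siI1 replicate 1 or 2, and the count higher to 2 without siI1 replicate 1 and to 3 without siC replicate 1 or 3 or siI1 replicate 2 or 3. In the order A549, ES2, MV3 and PANC1, the arm's median log2 fold changes were -0.049, -0.46, -0.39 and 0.17, where the medians over all genes tested were -0.013, -0.019, 0.0098 and -0.036.

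The ER arm had median log2 fold changes, in the same order of lines, of -0.039, 0.060, -0.076 and -0.15. In ES2 and MV3 these lay nearer 0 than those of the ATF4 arm, while in A549 and PANC1 the sizes were close, and without siC replicate 3 of PANC1 they were 0.12 for the ATF4 arm and -0.21 for the ER arm. Of its 23 genes, all tested in every line, 4 were lower and 2 higher in A549, 3 lower and 2 higher in ES2, 5 lower and 3 higher in MV3, and 7 lower and 1 higher in PANC1. Most of the 40 genes were well expressed, and above a mean level of 5 FPKM, a limit chosen after the data were seen, more of all genes were called: 13.5% lower and 10.7% higher in A549, 22.6% and 15.1% in ES2, 33.4% and 17.1% in MV3, and 20.8% and 19.0% in PANC1. The ER arm share called lower was 17.4% in A549 and 30.4% in PANC1, above these shares, and 13.0% in ES2 and 21.7% in MV3, below them. The ATF4 arm share called lower was 64.7% in both ES2 and MV3 and 31.2% in A549, above them, and 12.5% in PANC1, below. The arms and the lists below were not themselves cut at 5 FPKM. That level was reached by 34, 35, 32 and 34 of the 40 genes in A549, ES2, MV3 and PANC1. Counts of the few genes in an arm moved with single libraries. ER arm calls lower in A549 went from 4 to 2 without siC replicate 1, 2 or 3 or siI1 replicate 3. Those lower in PANC1 went from 7 to 5 of 23 whichever of the 6 libraries was left out. Those higher in ES2 went from 2 to 1 without siC replicate 1 or siI1 replicate 1 or 3. In MV3, calls higher went from 3 to 1 without siC replicate 2 or siI1 replicate 3. Calls lower there went from 5 to 3 without siC replicate 2. The 1 higher in PANC1 was lost without any library but siC replicate 3. In PANC1 the calls lower over all genes also fell without 1 library, from 2131 to between 1237 and 1954. Shares of all genes from the fits with all 6 libraries are therefore no background for these counts. No test of one arm against the other was made.

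**Figure D1:**
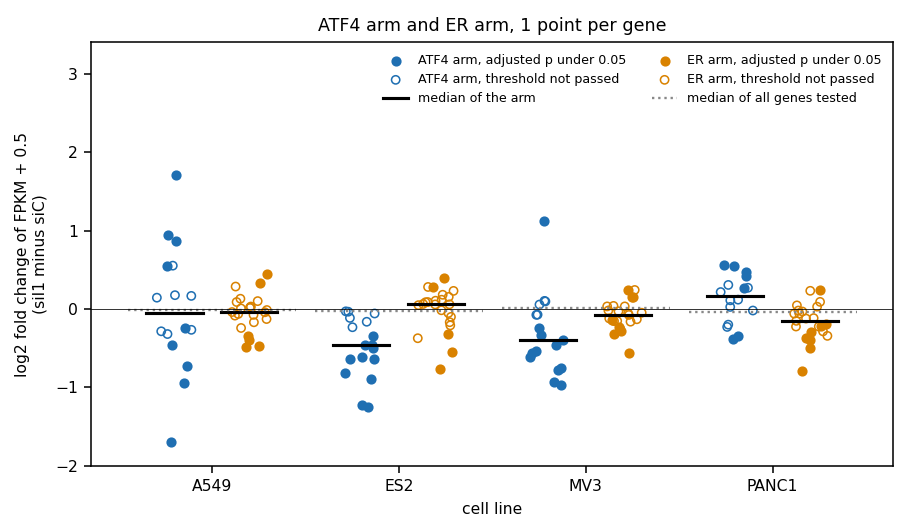
Each point is 1 gene of the ATF4 arm (blue) or the ER arm (orange), plotted by its change in log2(FPKM + 0.5) units (vertical axis, siI1 minus siC) by cell line (horizontal axis). Filled points passed an adjusted p of 0.05, black bars are the arm medians and dotted lines the medians of all genes tested. The ATF4 arm medians lie at -0.46 in ES2 and -0.39 in MV3, and at 0.17 in PANC1. The PANC1 median turns negative under rescaling to equal sums, where the median of all genes is -0.68.

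Library by library, the median deviation of the ATF4 arm from the siC mean, in values as deposited, separated the groups in 3 lines. The siI1 libraries of ES2 stood at -0.46, -0.52 and -0.53 log2 units and those of MV3 at -0.37, -0.43 and -0.38, with all 6 siC libraries of those lines between -0.055 and 0.053. The PANC1 siI1 libraries stood at 0.15, 0.20 and 0.21, above the siC libraries at 0.024, 0.094 and -0.10. Over genes with 20 or more recovered reads in a pair, PANC1 siC replicates 2 and 3 differed most, with a mean chi-square per gene of 15.1. All other replicate pairs lay between 1.54 and 5.87. In A549 the siI1 libraries at -0.11, 0.024 and -0.079 overlapped the siC libraries at -0.0058, -0.036 and 0.064. For the ER arm the siI1 libraries of PANC1 stood at -0.19, -0.080 and -0.16 and those of MV3 at -0.058, -0.088 and -0.086, below every siC library of their line. The ES2 siI1 libraries stood slightly above their siC libraries, at 0.081, 0.033 and 0.039, and in A549 the groups overlapped.

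**Figure D2:**
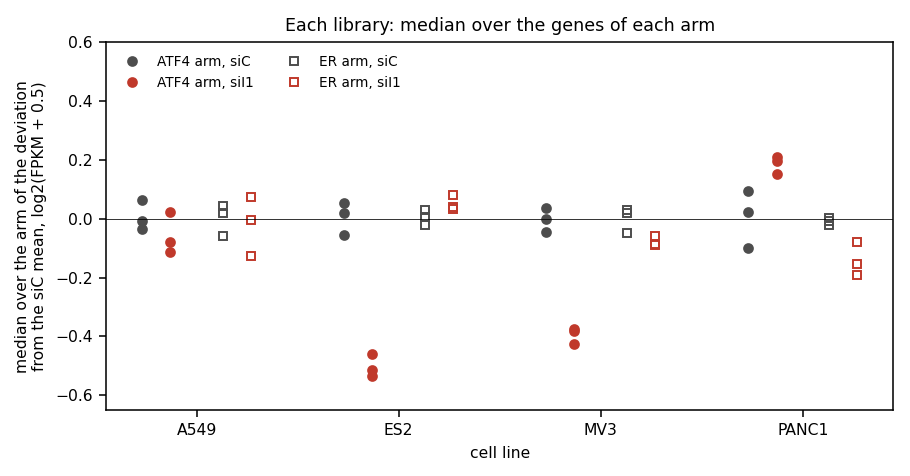
Each symbol is 1 library, plotted as the median over the genes of an arm of the deviation from the siC mean, in units of log2(FPKM + 0.5) (vertical axis), by cell line (horizontal axis), with siC in grey and siI1 in red, the ATF4 arm as filled circles and the ER arm as open squares. All 3 siI1 libraries of ES2 and of MV3 lie below -0.35 for the ATF4 arm, while the lowest ER arm library, of PANC1, lies at -0.19.

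The scaling of the libraries mattered in PANC1. As deposited, the median of all genes there was -0.036. After rescaling every library to the same summed FPKM it was -0.68, with RN7SL2 holding most of the sum, and 8860 of 16077 genes were then called lower and 93 higher. The split of the ATF4 arm in PANC1 then turned from 2 lower and 5 higher to 10 lower and 0 higher, and that of the ER arm from 7 lower and 1 higher to 20 lower and 0 higher. After rescaling to the same number of recovered reads, an alternative chosen after the data were seen, the median of all genes was -0.18, the ATF4 arm had 3 lower and 3 higher, and the ER arm 13 lower and 0 higher. Relative to the median of all genes, the ATF4 arm of PANC1 stood at 0.20 as deposited, 0.12 at equal sums and 0.185 at equal reads, and the ER arm at -0.12, -0.16 and -0.12. Of all genes called in PANC1, 54.3% were lower as deposited, 99.0% at equal sums and 76.9% at equal reads. Equal sums moved that share from 55.4% to 44.4% in ES2, and equal reads from 54.5% to 44.01% in MV3, while the calls of the ATF4 arm in these lines stayed at 11 lower. Directions given below for PANC1 are those of the values as deposited. PANC1 values at equal sums are to be read beside the median of all genes of -0.68.

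**Figure D3:**
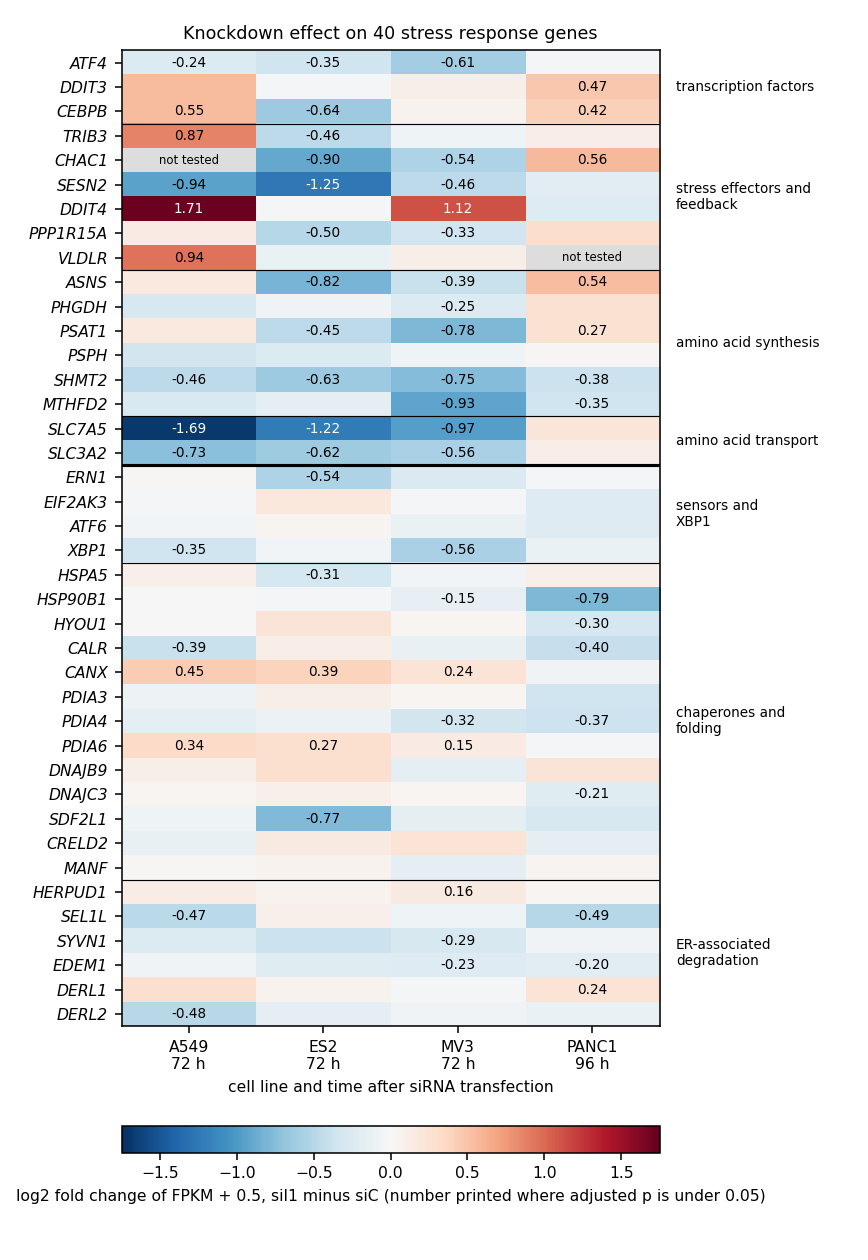
Colour gives the change in log2(FPKM + 0.5) units (siI1 minus siC, blue lower, red higher) of each of the 40 genes (rows, by role) in each cell line (columns, with hours after transfection), and a number is printed where the adjusted p is under 0.05. SHMT2 is the gene called lower in all 4 lines, and SLC7A5 reaches -1.69 in A549. The rows from ERN1 down are the ER arm, where HSP90B1 reaches -0.79 in PANC1. At equal sums the higher calls of PANC1 turn negative, with a median of all genes of -0.68.

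The transcription factors come first. ATF4 (ENSG00000128272, chr22:39519695-39522683 in hg38, plus strand) encodes the factor that names its arm. ATF4 in A549 was at 51.5, 56.1 and 55.3 FPKM under siC and at 44.8, 45.7 and 46.8 under siI1. ATF4 in ES2 was at 90.7, 94.2 and 98.0 FPKM under siC and at 76.4, 68.4 and 77.0 under siI1. ATF4 in MV3 was at 77.1, 71.2 and 68.9 FPKM under siC and at 46.0, 46.8 and 48.5 under siI1. In each of these 3 lines the siI1 libraries all lay below the siC libraries. ATF4 in PANC1 was at 58.9, 54.2 and 50.8 FPKM under siC and at 54.2, 56.4 and 50.9 under siI1, and there the groups overlapped. The knockdown effect on ATF4 was -0.24 ± 0.051 in A549 (adjusted p = 0.0272), -0.35 ± 0.060 in ES2 (adjusted p = 0.00865), -0.61 ± 0.048 in MV3 (adjusted p = 0.000359) and -0.019 ± 0.072 in PANC1 (adjusted p = 0.878). The A549 call was lost without siC replicate 2 or 3 or siI1 replicate 1, 2 or 3, with an adjusted p of between 0.0633 and 0.0877. ATF4 mRNA thus fell in 3 lines, and the difference between lines had an adjusted p = 0.00015 in the limma interaction test described further on.

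DDIT3, which encodes the proapoptotic factor CHOP, is induced by ATF4 under lasting stress. DDIT3 in A549 was at 5.23, 4.76 and 5.95 FPKM under siC and at 7.36, 9.73 and 7.13 under siI1, with every siI1 library above every siC library. DDIT3 in ES2 was at 4.92, 6.38 and 5.91 FPKM under siC and at 5.92, 6.79 and 4.30 under siI1. DDIT3 in MV3 was at 7.14, 6.95 and 6.90 FPKM under siC and at 6.69, 7.40 and 8.57 under siI1, and in both of these lines the groups overlapped. DDIT3 in PANC1 was at 14.4, 13.6 and 13.7 FPKM under siC and at 20.2, 17.99 and 20.2 under siI1, all siI1 libraries being higher. The log2 fold changes were 0.55 ± 0.14 in A549 (adjusted p = 0.0548), -0.029 ± 0.17 in ES2 (adjusted p = 0.927), 0.10 ± 0.086 in MV3 (adjusted p = 0.428) and 0.47 ± 0.065 in PANC1 (adjusted p = 0.00465). Only the PANC1 value passed, and it became -0.27 when libraries were rescaled to equal sums. Part of the DDIT3 exons lies opposite MARS1, a tRNA synthetase gene with up to 22.8 FPKM, over 355 bases or 27.2% of their length in GENCODE 44, and since the strand setting of the read counting is not given in the sources used here, the DDIT3 values are uncertain.

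CEBPB encodes C/EBPbeta, a partner of ATF4 on composite DNA elements. CEBPB in A549 was at 58.8, 51.3 and 60.4 FPKM under siC and at 80.9, 82.2 and 86.1 under siI1. CEBPB in ES2 was at 17.3, 18.7 and 19.0 FPKM under siC and at 11.2, 11.3 and 12.2 under siI1. In A549 the siI1 libraries were all higher and in ES2 all lower. CEBPB in MV3 was at 49.7, 50.8 and 48.0 FPKM under siC and at 48.0, 52.5 and 54.2 under siI1, with overlapping groups. CEBPB in PANC1 was at 12.9, 15.8 and 12.1 FPKM under siC and at 18.1, 19.6 and 16.9 under siI1, again with siI1 higher throughout. It rose in A549, 0.55 ± 0.072 (adjusted p = 0.00626), fell in ES2, -0.64 ± 0.060 (adjusted p = 0.00111), and rose in PANC1, 0.42 ± 0.11 (adjusted p = 0.0389), where equal sums gave -0.32. MV3 gave 0.057 ± 0.051 (adjusted p = 0.429). The PANC1 call was lost without siC replicate 1 or 3 or siI1 replicate 1, 2 or 3, with an adjusted p of between 0.0617 and 0.118.

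Of the 6 effector and feedback genes, TRIB3 and CHAC1 were called lower in some lines and higher in others, SESN2 and PPP1R15A were called only lower, and DDIT4 and VLDLR only higher. TRIB3, a pseudokinase that restrains ATF4, split A549 from ES2. TRIB3 in A549 was at 9.57, 6.73 and 10.2 FPKM under siC and at 18.01, 14.7 and 16.4 under siI1. TRIB3 in ES2 was at 13.6, 15.0 and 13.5 FPKM under siC and at 10.04, 10.5 and 9.51 under siI1. The siI1 libraries were all higher in A549 and all lower in ES2. TRIB3 in MV3 was at 13.7, 12.4 and 12.5 FPKM under siC and at 12.1, 12 and 12.5 under siI1. TRIB3 in PANC1 was at 8.94, 9.48 and 8.25 FPKM under siC and at 8.69, 10.3 and 10.2 under siI1, and the groups overlapped in both. Its log2 fold change was 0.87 ± 0.16 in A549 (adjusted p = 0.0194), -0.46 ± 0.066 in ES2 (adjusted p = 0.00457), -0.074 ± 0.049 in MV3 (adjusted p = 0.287) and 0.12 ± 0.089 in PANC1 (adjusted p = 0.382). The rise in A549 was not called without siI1 replicate 1 or 3, with an adjusted p of between 0.0617 and 0.0649.

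CHAC1, a glutathione-degrading enzyme, was barely detected in A549, at 0.238, 0.366 and 0.665 FPKM under siC and at 0.302, 0.534 and 0.137 under siI1, from 2 to 6 reads per siC library and 1 to 5 per siI1 library. CHAC1 in ES2 was at 4.54, 4.96 and 5.39 FPKM under siC and at 2.11, 2.56 and 2.65 under siI1. CHAC1 in MV3 was at 1.61, 1.43 and 1.85 FPKM under siC and at 1.02, 0.815 and 1.06 under siI1. In both lines all siI1 libraries were lower. CHAC1 in PANC1 was at 4.39, 5.02 and 4.40 FPKM under siC and at 6.89, 7.76 and 6.504 under siI1, and here all siI1 libraries were higher. It fell in ES2, -0.90 ± 0.11 (adjusted p = 0.0027), fell in MV3, -0.54 ± 0.13 (adjusted p = 0.0183), and rose in PANC1, 0.56 ± 0.093 (adjusted p = 0.00809), the largest called rise of the 40 genes there, where equal sums gave -0.13. The MV3 call was lost without siC replicate 1 or 3 or siI1 replicate 2, with an adjusted p of between 0.0508 and 0.0546.

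SESN2 encodes sestrin 2, a leucine-binding inhibitor of the growth kinase mTORC1. SESN2 in A549 was at 7.10, 7.79 and 7.27 FPKM under siC and at 3.24, 3.69 and 3.92 under siI1. SESN2 in ES2 was at 7.44, 7.59 and 7.67 FPKM under siC and at 2.44, 3.09 and 3.19 under siI1. SESN2 in MV3 was at 4.91, 5.54 and 4.29 FPKM under siC and at 3.35, 3.27 and 3.61 under siI1. Lower siI1 values without overlap were seen in all 3. SESN2 in PANC1 was at 6.999, 5.51 and 7.17 FPKM under siC and at 6.14, 5.39 and 5.34 under siI1, with overlapping groups. SESN2 gave the largest called fall among the 40 genes in ES2, -1.25 ± 0.10 (adjusted p = 0.000745), beside -0.94 ± 0.10 in A549 (adjusted p = 0.00338) and -0.46 ± 0.094 in MV3 (adjusted p = 0.0109). In PANC1 it was -0.20 ± 0.12 (adjusted p = 0.26).

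DDIT4 (REDD1; ENSG00000168209, chr10:72273919-72276036 in hg38, plus strand) also restrains mTORC1 and is induced by hypoxia and glucocorticoids as well as by ATF4. DDIT4 in A549 was at 48.8, 44.1 and 50.9 FPKM under siC and at 151, 163 and 161 under siI1. DDIT4 in MV3 was at 21.3, 21.1 and 20.9 FPKM under siC and at 45.6, 47.9 and 45.9 under siI1. In both lines the siI1 libraries stood well above the siC libraries. DDIT4 in ES2 was at 4.24, 6.22 and 5.05 FPKM under siC and at 5.88, 4.99 and 4.20 under siI1, with overlapping groups. DDIT4 in PANC1 was at 29.4, 37.3 and 28.4 FPKM under siC and at 25.8, 26.3 and 28.2 under siI1, with siI1 slightly below siC in every library. It gave the largest called rise in A549, 1.71 ± 0.066 (adjusted p = 0.000319), and in MV3, 1.12 ± 0.030 (adjusted p = 4.47e-05), against -0.034 ± 0.17 in ES2 (adjusted p = 0.91) and -0.23 ± 0.11 in PANC1 (adjusted p = 0.18). In A549 and MV3, then, DDIT4 rose while SESN2 and ATF4 fell.

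PPP1R15A (GADD34), the phosphatase subunit that reverses eIF2alpha phosphorylation, fell in ES2, -0.50 ± 0.080 (adjusted p = 0.00687), and in MV3, -0.33 ± 0.053 (adjusted p = 0.00423). It was at 0.14 ± 0.064 in A549 (adjusted p = 0.209) and 0.31 ± 0.10 in PANC1 (adjusted p = 0.0692). VLDLR, a lipoprotein receptor, rose in A549 from 5.69 ± 0.624 to 11.4 ± 0.134 FPKM, 0.94 ± 0.094 (adjusted p = 0.00264). In ES2, at 1.27 ± 0.269 FPKM under siC, and in MV3, at 1.22 ± 0.0589, it gave -0.11 ± 0.17 in ES2 (adjusted p = 0.685) and 0.10 ± 0.094 in MV3 (adjusted p = 0.439). In PANC1 siC libraries it stood at 0.107 ± 0.0168 FPKM.

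The enzymes of serine, one-carbon and asparagine synthesis had most of their lower calls in ES2 and MV3. Of the 6, A549 had 1 called lower (16.7%, against 13.5% of all genes above 5 FPKM), ES2 3 (50%, against 22.6%), MV3 5 (83.3%, against 33.4%) and PANC1 2 (33.3%, against 20.8%), and PANC1 had another 2 called higher (33.3%, against 19.0%). SHMT2 (ENSG00000182199, chr12:57229573-57234935 in hg38, plus strand), the mitochondrial enzyme that turns serine into glycine and a one-carbon unit, was the only gene of the 40 called in all 4 lines. SHMT2 in A549 was at 18.8, 19.4 and 20.7 FPKM under siC and at 12.3, 15.3 and 14.9 under siI1. SHMT2 in ES2 was at 74.4, 80.8 and 78.7 FPKM under siC and at 49.99, 47.7 and 52.5 under siI1. In neither line did the groups overlap, siI1 being lower. SHMT2 in MV3 was at 28.1, 26.9 and 25.3 FPKM under siC and at 14.8, 16.1 and 16.1 under siI1. SHMT2 in PANC1 was at 14.3, 14.3 and 12.2 FPKM under siC and at 9.58, 10.4 and 10.9 under siI1. Here too siI1 was lower throughout. Its log2 fold changes were -0.46 ± 0.10 in A549 (adjusted p = 0.0273), -0.63 ± 0.053 in ES2 (adjusted p = 0.000781), -0.75 ± 0.052 in MV3 (adjusted p = 0.000244) and -0.38 ± 0.086 in PANC1 (adjusted p = 0.0224). The A549 call was lost without siC replicate 1, 2 or 3 or siI1 replicate 3, with an adjusted p of between 0.0575 and 0.0888, and the PANC1 call without siC replicate 1 or 2 or siI1 replicate 1 or 2, with an adjusted p of between 0.0547 and 0.082.

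ASNS, asparagine synthetase, is a standard reporter of ATF4 activity. ASNS in ES2 was at 13.5, 12.04 and 12.1 FPKM under siC and at 7.38, 6.88 and 6.46 under siI1. ASNS in MV3 was at 6.67, 6.0 and 6.61 FPKM under siC and at 4.84, 4.65 and 4.81 under siI1. The siI1 libraries were lower without overlap. ASNS in PANC1 was at 9.04, 11.1 and 8.87 FPKM under siC and at 15.9, 12.8 and 14.4 under siI1, where siI1 was higher without overlap. ASNS in A549 was at 4.02, 4.40 and 3.53 FPKM under siC and at 4.53, 5.28 and 3.93 under siI1, and the groups overlapped. It fell in ES2, -0.82 ± 0.075 (adjusted p = 0.00104), and in MV3, -0.39 ± 0.054 (adjusted p = 0.00246), and rose in PANC1, 0.54 ± 0.12 (adjusted p = 0.0182), where equal sums gave -0.18. In A549 it was 0.18 ± 0.14 (adjusted p = 0.483). The PANC1 call was lost without siC replicate 1 or 3 or siI1 replicate 1 or 3, with an adjusted p of between 0.0564 and 0.0682.

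PSAT1, the aminotransferase of serine synthesis, was called in the same lines as ASNS. PSAT1 in ES2 was at 71.9, 74.6 and 83.1 FPKM under siC and at 55.0, 53.3 and 58.8 under siI1. PSAT1 in MV3 was at 52.6, 51.8 and 52.7 FPKM under siC and at 31.0, 29.8 and 29.9 under siI1. Every siI1 library was below every siC library in both. PSAT1 in PANC1 was at 45.1, 44.2 and 40.9 FPKM under siC and at 53.3, 52.2 and 51.2 under siI1. PSAT1 in A549 was at 72.6, 74.0 and 71.3 FPKM under siC and at 75.3, 83.9 and 86.0 under siI1. In these 2 lines every siI1 library was above every siC library, but in A549 the difference did not pass the threshold. The log2 fold changes were 0.17 ± 0.060 in A549 (adjusted p = 0.134), -0.45 ± 0.068 in ES2 (adjusted p = 0.00534), -0.78 ± 0.027 in MV3 (adjusted p = 5.93e-05) and 0.27 ± 0.055 in PANC1 (adjusted p = 0.0171). PANC1 gave -0.48 at equal sums, and its call was lost without siI1 replicate 1 or 2, with an adjusted p of between 0.0551 and 0.0665.

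MTHFD2, the mitochondrial folate enzyme next to SHMT2, fell in MV3, -0.93 ± 0.072 (adjusted p = 0.00034), and in PANC1, -0.35 ± 0.063 (adjusted p = 0.0111), and gave -0.27 ± 0.073 in A549 (adjusted p = 0.064) and -0.16 ± 0.055 in ES2 (adjusted p = 0.0846). Its PANC1 call was lost without siC replicate 1, with an adjusted p of 0.0503. PHGDH, which opens serine synthesis, fell in MV3, -0.25 ± 0.064 (adjusted p = 0.0264), a call lost without siC replicate 1 or 2 or siI1 replicate 1 or 2, with an adjusted p of between 0.0524 and 0.0859. It gave -0.28 in A549, -0.057 in ES2 and 0.27 in PANC1, none of which passed. PSPH, which closes the pathway, passed in no line, with log2 fold changes from -0.32 to 0.027. PSPH has an expressed pseudogene copy, PSPHP1, at up to 44.7 FPKM, so its reads may be divided.

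The transporter LAT1, made of SLC7A5 and SLC3A2, exchanges glutamine for leucine and other large neutral amino acids. Both subunits fell in A549, ES2 and MV3, and neither passed in PANC1. SLC7A5 (ENSG00000103257, chr16:87830023-87869507 in hg38, minus strand) in A549 was at 158, 144 and 172 FPKM under siC and at 47.9, 46.9 and 50.7 under siI1. SLC7A5 in ES2 was at 29.7, 31.9 and 29.2 FPKM under siC and at 14.8, 11.4 and 12.02 under siI1. SLC7A5 in MV3 was at 34.6, 33.4 and 30.3 FPKM under siC and at 16.6, 17.2 and 15.7 under siI1. All siI1 libraries were far below all siC libraries in the 3 lines. SLC7A5 in PANC1 was at 75.5, 91.3 and 74.2 FPKM under siC and at 90.3, 94.6 and 94.1 under siI1, with overlapping groups. It gave the largest called fall among the 40 genes in A549, -1.69 ± 0.073 (adjusted p = 0.000369), and in MV3, -0.97 ± 0.060 (adjusted p = 0.00019), with -1.22 ± 0.10 in ES2 (adjusted p = 0.000745) and 0.22 ± 0.088 in PANC1 (adjusted p = 0.125). A pseudogene copy, SLC7A5P1, reached 8.09 FPKM.

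SLC3A2, the glycoprotein partner that carries SLC7A5 to the membrane, was less changed. SLC3A2 in A549 was at 101, 94.0 and 102 FPKM under siC and at 58.7, 62.0 and 57.8 under siI1. SLC3A2 in ES2 was at 34.1, 37.4 and 34.8 FPKM under siC and at 23.2, 22.0 and 23.6 under siI1. SLC3A2 in MV3 was at 55.9, 54.1 and 52.4 FPKM under siC and at 35.2, 37.3 and 37.0 under siI1. In all 3 the siI1 libraries were lower without overlap. SLC3A2 in PANC1 was at 40.6, 40.6 and 37.4 FPKM under siC and at 43.4, 45.4 and 39.6 under siI1, and the groups overlapped. The log2 fold changes were -0.73 ± 0.052 in A549 (adjusted p = 0.00109), -0.62 ± 0.052 in ES2 (adjusted p = 0.000818), -0.56 ± 0.038 in MV3 (adjusted p = 0.000228) and 0.11 ± 0.069 in PANC1 (adjusted p = 0.291). In the transporter pair, 0 genes were called in PANC1 by limma, 1 (SLC7A5) was positive at an unadjusted p under 0.05, and voom on the recovered reads called 1 higher.

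**Figure D4:**
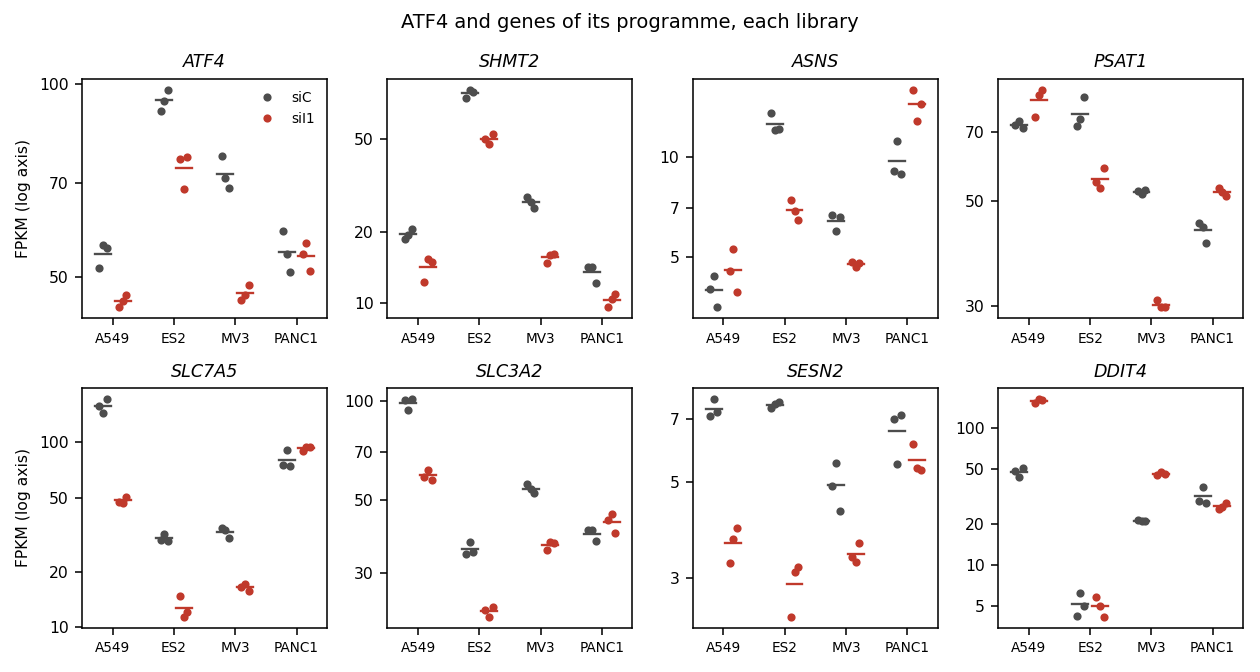
FPKM (vertical log axis) of 8 ATF4 arm genes in each library, by cell line, with siC in grey, siI1 in red, 1 point per library and bars at the group means (n = 3). In A549, ES2 and MV3 the siI1 points of SLC7A5, SLC3A2, SESN2, SHMT2 and ATF4 lie below the siC points, and DDIT4 lies higher in A549 and MV3.

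ATF4 binds, as a dimer with a C/EBP partner, to composite elements whose core is written here as TGATGNAA, with N any base. RefSeq promoter windows, 250 bases before to 50 after a start site in GRCh38.p14, were available for 36 of the 40 genes. PSPH, PDIA3, DERL1 and SHMT2 had no window. The core, searched on both strands in a scan added after the data were seen, was found in 3 of 15 ATF4 arm genes (ASNS, CHAC1 and SLC3A2) and in 1 of 21 ER arm genes (HERPUD1), against 4.46% of all 27305 genes. The sites are shown because the 3 ATF4 arm genes carry calls above and HERPUD1 is the ER arm gene with known ATF4 input. The core is in capitals, on the gene's strand in GRCh38.p14, and reads TTNCATCA where it runs on the opposite strand.
ASNS, chr7:97872462-97872483, minus strand: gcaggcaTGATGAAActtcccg
CHAC1, chr15:40953255-40953276, plus strand: cctgccgTTGCATCActcctgc
HERPUD1, chr16:56931959-56931980, plus strand: cggcgggTTGCATCAgcccgtg
SLC3A2, chr11:62881729-62881748, plus strand: ggactccTTACATCAgctcc
The 3 ATF4 arm genes with a core had unlike changes, since SLC3A2 fell in A549, ES2 and MV3 while ASNS and CHAC1 fell in ES2 and MV3 and rose in PANC1 as deposited. A match in these letters is a description of the window only.

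Of the 3 sensors and XBP1, 1 of 4 was called lower in each of A549, ES2 and MV3. This is 25%, against 13.5%, 22.6% and 33.4% of all genes above 5 FPKM and 7.83%, 13.0% and 19.5% of all genes tested. ERN1 and EIF2AK3 lay below 5 FPKM in every library, so the first background covers genes at higher levels than theirs. ERN1 has kinase and RNase activity and cleaves XBP1 mRNA. ERN1 in A549 was at 4.60, 4.30 and 4.12 FPKM under siC and at 4.18, 4.15 and 4.88 under siI1. ERN1 in ES2 was at 2.71, 2.68 and 2.501 FPKM under siC and at 1.76, 1.57 and 1.62 under siI1. The groups overlapped in A549 and stood apart in ES2. ERN1 in MV3 was at 1.37, 1.53 and 1.42 FPKM under siC and at 1.21, 1.04 and 1.144 under siI1. ERN1 in PANC1 was at 0.742, 0.930 and 1.1 FPKM under siC and at 0.929, 0.857 and 0.942 under siI1. Lower siI1 values without overlap were also seen in MV3. ERN1 fell in ES2, -0.54 ± 0.10 (adjusted p = 0.0111), and gave 0.016 ± 0.11 in A549 (adjusted p = 0.948), -0.25 ± 0.10 in MV3 (adjusted p = 0.0967) and -0.019 ± 0.18 in PANC1 (adjusted p = 0.952).

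EIF2AK3, the ER kinase of eIF2alpha, passed in no line. EIF2AK3 in A549 was at 3.97, 4.07 and 3.11 FPKM under siC and at 3.203, 3.197 and 4.47 under siI1. EIF2AK3 in ES2 was at 2.26, 2.13 and 2.37 FPKM under siC and at 3.05, 2.40 and 2.46 under siI1. In ES2 the siI1 libraries were slightly higher, and in A549 the groups overlapped. EIF2AK3 in MV3 was at 4.44, 4.45 and 4.496 FPKM under siC and at 4.35, 4.29 and 4.44 under siI1. EIF2AK3 in PANC1 was at 1.89, 2.51 and 2.104 FPKM under siC and at 1.37, 1.77 and 2.26 under siI1. Overlap was seen in both. In A549, ES2, MV3 and PANC1 its log2 fold changes were -0.039 ± 0.17, 0.18 ± 0.12, -0.029 ± 0.045 and -0.22 ± 0.18.

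ATF6, the membrane-bound factor released by cleavage, passed in no line either. ATF6 in A549 was at 11.9, 12.4 and 11.5 FPKM under siC and at 10.7, 11.9 and 12.1 under siI1. ATF6 in ES2 was at 10.99, 10.8 and 11.2 FPKM under siC and at 11.8, 11.3 and 11.1 under siI1. The groups overlapped in both. ATF6 in MV3 was at 12, 11.9 and 11.9 FPKM under siC and at 10.4, 11.2 and 11.2 under siI1. ATF6 in PANC1 was at 6.76, 5.96 and 5.80 FPKM under siC and at 5.36, 5.35 and 4.91 under siI1. In MV3 and PANC1 every siI1 library was below every siC library, by log2 fold changes of -0.12 ± 0.040 in MV3 (adjusted p = 0.0589) and -0.22 ± 0.083 in PANC1 (adjusted p = 0.102), which did not pass. A549 gave -0.042 ± 0.073 and ES2 0.049 ± 0.050. For PANC1, 0 of the 4 sensor and XBP1 genes were called by limma, 1 (ATF6) had an unadjusted p under 0.05, and voom called 0.

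XBP1 (ENSG00000100219, chr22:28794555-28800597 in hg38, minus strand) encodes the factor made active by ERN1 splicing, and its total mRNA, spliced and unspliced together, was counted here. XBP1 in A549 was at 25.3, 24.1 and 23.5 FPKM under siC and at 17.96, 20.9 and 18.4 under siI1. XBP1 in MV3 was at 20.7, 21.3 and 19.9 FPKM under siC and at 13.8, 14.1 and 13.7 under siI1. The siI1 libraries were lower without overlap in both. XBP1 in ES2 was at 31.2, 29.2 and 30.0 FPKM under siC and at 28.4, 27.9 and 31.0 under siI1. XBP1 in PANC1 was at 13.5, 15.5 and 11.8 FPKM under siC and at 11.4, 12.8 and 13.1 under siI1. Groups overlapped in those lines. XBP1 fell in A549, -0.35 ± 0.074 (adjusted p = 0.0299), and in MV3, -0.56 ± 0.036 (adjusted p = 0.000198), and gave -0.051 ± 0.055 in ES2 (adjusted p = 0.558) and -0.12 ± 0.11 in PANC1 (adjusted p = 0.459). The A549 call was lost without siC replicate 1, 2 or 3 or siI1 replicate 1 or 3, with an adjusted p of between 0.0693 and 0.103.

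Lower calls among the chaperones and folding enzymes were most numerous in PANC1. Of the 13, 1 was lower and 2 higher in A549, 2 lower and 2 higher in ES2, 2 lower and 2 higher in MV3, and 5 lower and 0 higher in PANC1, where 0 were also positive at an unadjusted p under 0.05 and voom called 0. The shares lower were 7.69% in A549 and 15.4% in both ES2 and MV3, under the 13.5%, 22.6% and 33.4% of all genes above 5 FPKM, and 38.5% in PANC1, over its 20.8%. Shares higher were 15.4%, 15.4%, 15.4% and 0% in A549, ES2, MV3 and PANC1, against 10.7%, 15.1%, 17.1% and 19.0%. HSPA5 (BiP), the Hsp70 of the ER lumen that holds the sensors inactive, is the usual reporter of ER stress. HSPA5 in A549 was at 238, 227 and 229 FPKM under siC and at 235, 246 and 258 under siI1. HSPA5 in ES2 was at 144, 147 and 140.2 FPKM under siC and at 122, 112 and 113 under siI1. The groups stood apart only in ES2, with siI1 lower. HSPA5 in MV3 was at 169, 169 and 161 FPKM under siC and at 156, 164 and 163 under siI1. HSPA5 in PANC1 was at 89.9, 101 and 91.0 FPKM under siC and at 99.2, 98.5 and 102 under siI1, with overlap in both. The log2 fold changes were 0.089 ± 0.051 in A549 (adjusted p = 0.322), -0.31 ± 0.048 in ES2 (adjusted p = 0.00609), -0.047 ± 0.036 in MV3 (adjusted p = 0.354) and 0.091 ± 0.061 in PANC1 (adjusted p = 0.324). HSPA5 was called lower in ES2 and did not pass elsewhere.

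HSP90B1 (GRP94; ENSG00000166598, chr12:103930107-103953931 in hg38, plus strand), the Hsp90 of the ER lumen, gave the largest called fall of the 40 genes in PANC1. HSP90B1 in PANC1 was at 71.9, 74.7 and 79.6 FPKM under siC and at 42.9, 43.7 and 43.9 under siI1. HSP90B1 in MV3 was at 151, 149.5 and 144 FPKM under siC and at 136, 132 and 134 under siI1. Both lines had lower siI1 values without overlap, by far more in PANC1. HSP90B1 in A549 was at 227, 238 and 215 FPKM under siC and at 220.0, 228 and 236 under siI1. HSP90B1 in ES2 was at 171, 169 and 171 FPKM under siC and at 162, 172 and 171 under siI1. Overlap was seen in these lines. It fell in PANC1, -0.79 ± 0.054 (adjusted p = 0.000857), and in MV3, -0.15 ± 0.031 (adjusted p = 0.013), against 0.0077 ± 0.055 in A549 (adjusted p = 0.953) and -0.016 ± 0.039 in ES2 (adjusted p = 0.812). The MV3 call was lost without siC replicate 2 or siI1 replicate 2, with an adjusted p of between 0.0519 and 0.0583.

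CANX and PDIA6 were the only genes of the 40 called higher in 3 lines. CANX (ENSG00000127022, chr5:179678628-179731641 in hg38, plus strand) encodes calnexin, the membrane lectin that folds N-glycoproteins. CANX in A549 was at 206, 212 and 184 FPKM under siC and at 263, 277 and 280.1 under siI1. CANX in ES2 was at 243, 234 and 259 FPKM under siC and at 312, 324 and 329 under siI1. CANX in MV3 was at 151, 154 and 142 FPKM under siC and at 179, 175 and 175 under siI1. All siI1 libraries were above all siC libraries. CANX in PANC1 was at 118, 119 and 119.6 FPKM under siC and at 113, 117 and 112 under siI1, slightly lower under siI1. The log2 fold changes were 0.45 ± 0.065 in A549 (adjusted p = 0.00886), 0.39 ± 0.052 in ES2 (adjusted p = 0.00357), 0.24 ± 0.038 in MV3 (adjusted p = 0.00407) and -0.058 ± 0.047 in PANC1 (adjusted p = 0.419), and the ES2 value was the largest called rise in that line.

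PDIA6, a protein disulfide isomerase of the ER lumen, was called in the same lines. PDIA6 in A549 was at 86.5, 91.9 and 90.2 FPKM under siC and at 108, 114 and 117 under siI1. PDIA6 in ES2 was at 87.6, 82.4 and 94.7 FPKM under siC and at 106, 104 and 110.1 under siI1. PDIA6 in MV3 was at 50.1, 48.9 and 47.1 FPKM under siC and at 52.9, 55.7 and 53.6 under siI1. The siI1 libraries were higher without overlap in all 3. PDIA6 in PANC1 was at 61.0, 61.1 and 58.9 FPKM under siC and at 60.4, 59.0 and 57.7 under siI1, with overlap. The log2 fold changes were 0.34 ± 0.049 in A549 (adjusted p = 0.0089), 0.27 ± 0.060 in ES2 (adjusted p = 0.0204), 0.15 ± 0.035 in MV3 (adjusted p = 0.0177) and -0.032 ± 0.046 in PANC1 (adjusted p = 0.664). The ES2 call was lost without siC replicate 1 or siI1 replicate 1 or 3, with an adjusted p of between 0.0596 and 0.075, and the MV3 call without siC replicate 2 or siI1 replicate 2 or 3, with an adjusted p of between 0.0508 and 0.059.

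Calreticulin (CALR), the soluble lectin partner of calnexin, was lower where calnexin rose in A549. It fell from 353 ± 5.26 to 269 ± 1.498 FPKM in A549, -0.39 ± 0.039 (adjusted p = 0.00264), and from 228 ± 5.92 to 173 ± 10.2 in PANC1, -0.40 ± 0.063 (adjusted p = 0.00711). It gave 0.12 in ES2 and -0.13 in MV3. The disulfide isomerase PDIA4 fell in MV3, -0.32 ± 0.034 (adjusted p = 0.001), and PANC1, -0.37 ± 0.059 (adjusted p = 0.00763). PDIA3, the isomerase that works with both lectins, passed in no line, with -0.34 in PANC1 as its largest change, and its expressed pseudogene PDIA3P1 reached 12.3 FPKM. SDF2L1, a BiP cofactor, fell in ES2 from 39.7 ± 3.09 to 23.1 ± 1.37 FPKM, -0.77 ± 0.074 (adjusted p = 0.00121).

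HYOU1 (GRP170), a nucleotide exchange factor for BiP, fell in PANC1, -0.30 ± 0.053 (adjusted p = 0.0103). DNAJC3 (p58IPK), a BiP cochaperone, fell in PANC1, -0.21 ± 0.058 (adjusted p = 0.041), but the call was lost without any 1 of the 6 libraries, with an adjusted p of between 0.0573 and 0.134. DNAJB9, another cochaperone, passed in no line, with log2 fold changes from -0.15 to 0.28. CRELD2 and MANF, secreted products of the unfolded protein response, passed in none, CRELD2 ranging from -0.15 to 0.24 and MANF from -0.15 to 0.064.

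XBP1 and ATF6 act through the ER stress response element, written here as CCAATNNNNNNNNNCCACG, with N any base. On both strands of the same promoter windows it was found in 7 of 21 ER arm genes with a window, 6 of them among 12 chaperones, and in 0 of 15 ATF4 arm genes, against 0.0916% of all 27305 genes, and no site overlapped a C/EBP-ATF core. These sequences are shown because genes that rose (CANX, PDIA6), fell (HSP90B1, CALR, XBP1) or passed in 1 line or none (HSPA5, CRELD2) all carry the element, given in capitals on the gene's strand in GRCh38.p14, with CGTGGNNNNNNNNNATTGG where it runs on the opposite strand.
CALR, chr19:12938380-12938406, plus strand: cacgCGTGGTCGACCATCATTGGtcgg
CANX, chr5:179698774-179698800, plus strand: ccggCCAATCTTCACACTCCACGaaga
CRELD2, chr22:49918550-49918576, plus strand: ctctCGTGGCGAACTCGGATTGGgcca
HSP90B1, chr12:103930317-103930343, plus strand: ggtgCGTGGTGCGGCGCGATTGGtggg
HSP90B1, chr12:103930212-103930238, plus strand: ctgaCCAATCGGAAGGAGCCACGcttc
HSPA5, chr9:125241387-125241413, minus strand: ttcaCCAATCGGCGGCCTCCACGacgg
PDIA6, chr2:10812849-10812875, minus strand: cggaCCAATGAGCCGCAGCCACGgctt
XBP1, chr22:28800599-28800625, minus strand: ctggCCAATCGCGGAGGGCCACGaccg
The ER arm was listed for its role in the unfolded protein response, so its share of matches is not independent of the choice of genes. Here too a match describes the window only. The 7 genes with the element did not move together. In A549, CANX and PDIA6 rose while CALR and XBP1 fell, and HSPA5, HSP90B1 and CRELD2 did not pass. In PANC1, HSP90B1 and CALR fell and the other 5 did not pass.

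**Figure D5:**
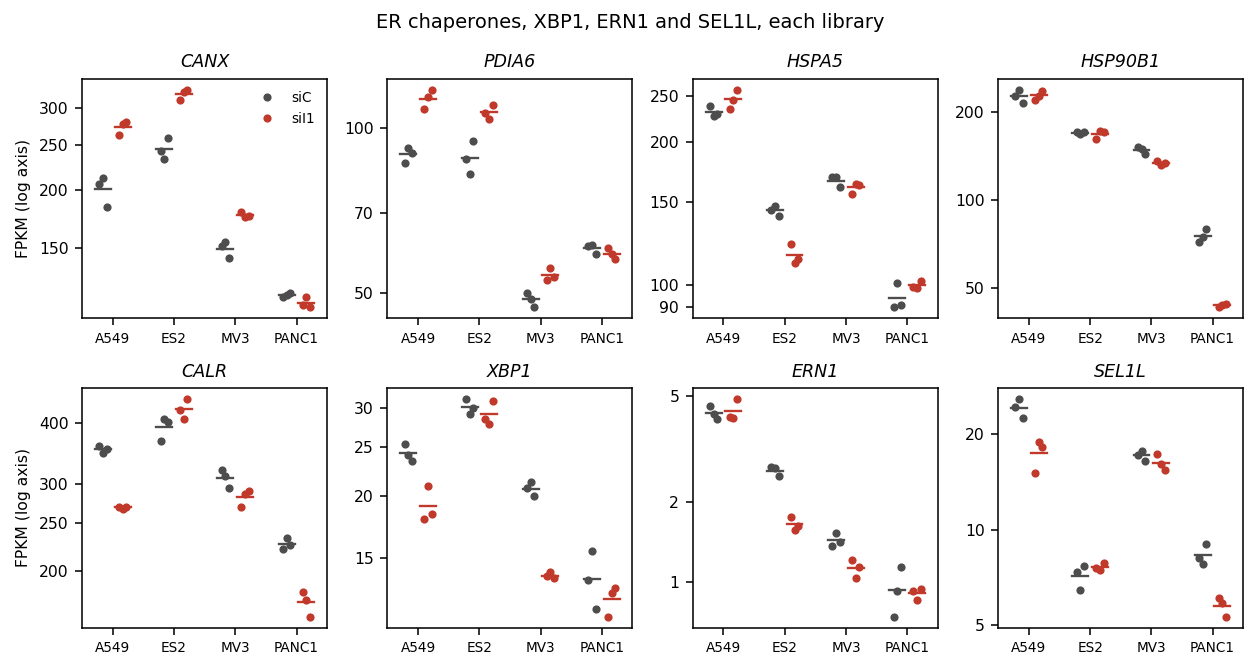
FPKM (vertical log axis) of 8 ER arm genes in each library, by cell line, with siC in grey, siI1 in red, 1 point per library and bars at the group means (n = 3). CANX and PDIA6 are higher under siI1 in A549, ES2 and MV3, and HSP90B1 is lower in PANC1, at 42.9 to 43.9 FPKM in the 3 siI1 libraries.

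The 6 genes of ER-associated degradation, which carry misfolded proteins back to the cytosol, gave 2 calls lower in A549, 2 lower and 1 higher in MV3 and 2 lower and 1 higher in PANC1. The share lower was 33.3% in each of these lines, against 13.5%, 33.4% and 20.8% of all genes above 5 FPKM. The share higher was 16.7% in MV3 and in PANC1, against 17.1% and 19.0%. In ES2 limma called 0, while 3 (SYVN1, EDEM1 and DERL2) were negative at an unadjusted p under 0.05 and voom called 2 lower. SEL1L, the scaffold of the HRD1 ligase, fell in A549 from 24.3 ± 1.63 to 17.4 ± 2.04 FPKM, -0.47 ± 0.10 (adjusted p = 0.0293), and in PANC1 from 8.33 ± 0.633 to 5.76 ± 0.397, -0.49 ± 0.084 (adjusted p = 0.00888). Its A549 call was lost without siC replicate 1, 2 or 3 or siI1 replicate 3, with an adjusted p of between 0.0572 and 0.094. SYVN1, the HRD1 ligase itself, fell in MV3, -0.29 ± 0.087 (adjusted p = 0.0454), a call lost without siC replicate 1 or 2 or siI1 replicate 1 or 3, with an adjusted p of between 0.0979 and 0.133. SYVN1 shares 130 exonic bases with the ribosomal gene FAU, at up to 276 FPKM on the same strand, so its reads are uncertain.

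DERL2, of the derlin family that helps substrates leave the ER, fell in A549, -0.48 ± 0.068 (adjusted p = 0.0081). Its relative DERL1 rose in PANC1, 0.24 ± 0.065 (adjusted p = 0.0393), where equal sums gave -0.48, and the call was lost without siC replicate 1 or 2 or siI1 replicate 1, 2 or 3, with an adjusted p of between 0.0559 and 0.12. EDEM1, which marks glycoproteins for disposal, fell in MV3, -0.23 ± 0.043 (adjusted p = 0.00783), and in PANC1, -0.20 ± 0.055 (adjusted p = 0.0446), the latter call lost without any 1 of the 6 libraries, with an adjusted p of between 0.0519 and 0.133. HERPUD1, an early ER stress gene with ATF4 and ATF6 inputs, rose in MV3, 0.16 ± 0.039 (adjusted p = 0.0226), lost without siC replicate 2 or 3 or siI1 replicate 1 or 3, with an adjusted p of between 0.0561 and 0.0785, and varied only from 0.030 to 0.16 over the lines.

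Whether the knockdown effect differed between lines was tested directly, by a limma F-test of the line by siRNA interaction over all 24 libraries. It used genes above the filter in every line, which left out CHAC1 and VLDLR. Of the 38 remaining genes 30 passed, 14 of 15 in the ATF4 arm and 16 of 23 in the ER arm, where 45.0% of all 12816 genes tested passed. Among the 5394 genes at 5 FPKM or more in every line 64.3% passed, beside 24 of the 28 listed genes at that level. The smallest adjusted p belonged to SLC7A5 and PSAT1 (adjusted p = 1.2e-08 for both), followed by HSP90B1 (adjusted p = 1.88e-08) and DDIT4 (adjusted p = 6.43e-08). SHMT2, called lower in every line, still differed in size between lines (adjusted p = 0.0313). PSPH was the ATF4 arm gene that did not pass (adjusted p = 0.184), and the 7 of the ER arm were DNAJB9, EDEM1, EIF2AK3, HERPUD1, MANF, PDIA3 and SYVN1. In 5 genes, all of the ATF4 arm, a line with a called fall stood against a line with a called rise: ASNS, PSAT1, CHAC1, TRIB3 and CEBPB. The PANC1 rises of ASNS, PSAT1, CHAC1 and CEBPB turn negative at equal sums, where the median of all genes was -0.68. The A549 rises of TRIB3 and CEBPB do not turn negative. Opposite calls also occurred among the further pathway genes below, such as SLC7A11 and CREB3L1, the latter near the filter in PANC1. 7 of the 40 genes passed in no line: PSPH, ATF6, EIF2AK3, CRELD2, DNAJB9, MANF and PDIA3. How often all genes show such patterns over the lines was not counted.

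Further genes of these pathways were counted in 4 lists. Of 41 further ATF4 and integrated stress response genes, 10 of 38 tested were lower and 4 higher in A549, 17 of 37 and 3 in ES2, 21 of 36 and 3 in MV3, and 11 of 37 and 5 in PANC1. The shares lower were 26.3%, 45.9%, 58.3% and 29.7%, against 13.5%, 22.6%, 33.4% and 20.8% of all genes above 5 FPKM. Shares higher were 10.5%, 8.11%, 8.33% and 13.5%, against 10.7%, 15.1%, 17.1% and 19.0%. The median log2 fold changes were -0.14, -0.25, -0.35 and -0.15 in A549, ES2, MV3 and PANC1, against -0.013, -0.019, 0.0098 and -0.036 over all genes tested. 4 genes of this list fell in all 4 lines. GOT1, the cytosolic aspartate aminotransferase, gave log2 fold changes of -0.86, -0.67, -0.84 and -0.59 in A549, ES2, MV3 and PANC1. The cationic amino acid transporter SLC7A1 gave -0.82, -0.67, -0.77 and -0.58, and the neutral amino acid transporter SLC38A2 -0.30, -0.48, -0.33 and -0.52. EIF2S1, which encodes eIF2alpha itself, gave -0.40, -0.34, -0.35 and -0.34. GOT1, SLC7A1 and SLC38A2 thus fell in PANC1 as well, where SLC7A5 and SLC3A2 did not pass.

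Genes of the same list that rose in all 4 lines were STC2, a secreted glycoprotein, and SESN1, a relative of SESN2. STC2 went from 4.44 ± 0.952 to 12.1 ± 0.406 FPKM in A549 (1.37, the largest called rise of the further genes in that line) and gave 1.142, 0.17 and 0.45 in ES2, MV3 and PANC1, the last turning to -0.26 at equal sums. SESN1 gave 0.47, 0.52, 0.63 and 0.62, the last turning to -0.064 at equal sums, where SESN2 had -0.94, -1.25, -0.46 and -0.20. The cystine transporter SLC7A11 gave the largest called fall of the further genes in MV3, -1.24 ± 0.042 (adjusted p = 5.93e-05), fell in ES2, -0.31 ± 0.081 (adjusted p = 0.0371), and rose in A549, 0.65 ± 0.078 (adjusted p = 0.00462). PCK2, the mitochondrial PEP carboxykinase, gave the largest in ES2, -0.90 ± 0.068 (adjusted p = 0.000572). ATF3, a repressor downstream of ATF4, gave the largest called rise in PANC1, from 1.96 ± 0.186 to 4.48 ± 0.499 FPKM, 1.01 ± 0.11 (adjusted p = 0.00247), and stayed positive at equal sums (0.37).

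Of 33 further ER folding and translocation genes, 6 were lower and 2 higher in A549, 3 and 5 in ES2, 10 and 7 in MV3, and 11 and 5 in PANC1. The shares lower were 18.2%, 9.09%, 31.2% and 33.3% of those tested, against the same 13.5%, 22.6%, 33.4% and 20.8%. For falls the list was near the background in A549 and MV3, above it in PANC1 and below it in ES2, and these differences were not tested. Shares higher were 6.06%, 15.2%, 21.9% and 15.2%, against 10.7%, 15.1%, 17.1% and 19.0%. P4HB, the founding protein disulfide isomerase, fell in all 4 lines, with log2 fold changes of -0.70, -0.41, -0.36 and -0.59, opposite to PDIA6 in A549, ES2 and MV3. SSR3, a subunit of the translocon-associated TRAP complex, fell in all 4, with -0.37, -0.86, -0.68 and -0.56. The other SSR genes listed did not fall with it. SSR1 rose in 3 lines, with 0.27 in A549, 0.37 in ES2 and 0.14 in MV3. SSR4 rose in 2, with 0.19 in MV3 and 0.665 in PANC1 (-0.082 at equal sums), and SSR2 passed in none. CRELD1, a relative of CRELD2, gave the largest called fall in A549, -1.16 ± 0.16 (adjusted p = 0.00813). Of 24 further degradation genes, limma called 0 lower and 3 higher in A549, 4 and 3 in ES2, 9 and 4 in MV3, and 5 and 2 in PANC1. These lower shares, 0%, 17.4%, 39.1% and 21.7%, lay on both sides of the background of 13.5%, 22.6%, 33.4% and 20.8%. Their higher shares were 13.0%, 13.0%, 17.4% and 8.70%, against 10.7%, 15.1%, 17.1% and 19.0%. In A549, 3 (OS9, VCP and NPLOC4) were negative at an unadjusted p under 0.05 and voom called 3 lower. FAM8A1, which binds the HRD1 complex, gave the largest called rise in MV3, 0.92 ± 0.057 (adjusted p = 0.000194).

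Of 16 further regulators of the unfolded protein response, 2 were lower and 3 higher in A549, 3 and 4 in ES2, 4 and 3 in MV3, and 4 and 2 in PANC1. The shares lower, 14.3%, 21.4%, 30.8% and 28.6%, were near the 13.5%, 22.6% and 33.4% of all genes above 5 FPKM in A549, ES2 and MV3 and over the 20.8% in PANC1. The shares higher, 21.4%, 28.6%, 23.1% and 14.3%, were over the 10.7%, 15.1% and 17.1% in A549, ES2 and MV3 and under the 19.0% in PANC1. KDELR1 and KDELR2, the receptors that return chaperones such as BiP to the ER, rose in all 4 lines, KDELR1 by 0.36, 0.45, 0.30 and 0.38 and KDELR2 by 0.38, 0.88, 0.12 and 0.20, though at equal sums PANC1 gave -0.35 and -0.55. MBTPS2, the site-2 protease that cleaves ATF6, fell in all 4, with -0.31, -0.62, -0.50 and -1.06, while ATF6 itself passed in none. MBTPS1, the site-1 protease, went the other way in 3 lines, with 0.33 in A549, 0.54 in ES2 and 0.29 in MV3. CREB3L1 (OASIS), another membrane-bound factor of the ATF6 kind, rose in ES2, from 4.86 ± 0.0763 to 15.8 ± 1.07 FPKM, 1.602 ± 0.066 (adjusted p = 9.61e-05), and fell in PANC1, from 1.22 ± 0.0786 to 0.328 ± 0.182, -1.07 ± 0.24 (adjusted p = 0.0213). These were the largest called changes of the further genes in their lines. In PANC1, however, CREB3L1 passed the filter of 0.5 FPKM through its siC libraries, its siI1 mean being below 0.5. The size of that fall is therefore uncertain.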

How the data were processed

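Gene expression was measured by RNA-seq of rRNA-depleted total RNA in 24 libraries, 3 for each of 8 groups (4 lines, siC or siI1), grouped by the GEO labels. Per the study's methods and the submitters' processing notes, the authors trimmed reads with cutadapt 1.14, mapped them to hg38 with HISAT2 2.1.0, used SAMtools 1.5, counted per gene with featureCounts 1.5.3 on an Ensembl annotation and used edgeR 3.30.3 with TMM normalisation. The strand setting of the counting is not given in the sources used here. The deposited values are FPKM per gene, as deposited by the authors, with 1 table per line normalised separately, so lines are set side by side only. Fold change, p-value and FDR columns of the authors' own comparison were not used, and 0 columns of other samples were present.

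Within each library the FPKM were whole multiples of the value of 1 read for a gene's length (100% within a tolerance of 0.02), which gave recovered reads of 3105215 to 20082702 per library, so low genes are least precise in A549. FPKM were analysed as log2(FPKM + 0.5) in genes averaging 0.5 FPKM or more, by limma 3.58.1 in R 4.3.3 per line (siI1 against siC, no covariates), p-values being adjusted by Benjamini-Hochberg across the genes of that line, with a threshold of 0.05. The fold change on this scale understates that of low genes. The line by siRNA interaction was tested with limma over all 24 libraries. The code was tested on simulated data. Python 3.11.15 was used for tables and figures.

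Alternatives were pseudocounts of 0.1 and 1, no filter or a filter at 1 FPKM, other scalings, voom on recovered reads, the replicate number as a block and leaving out each library. The members and lists were chosen with earlier results of these data known. Every library's value is given for the transcription factors ATF4, DDIT3 and XBP1, the sensors, HSPA5, genes called one way in at least 3 lines or both ways in different lines, and the largest called fall and rise per line; TRIB3, CEBPB and CHAC1 enter through these rules. Further pathway genes are named where called one way in all 4 lines or largest in a line. OS9, VCP, NPLOC4, SSR1, SSR2, SSR4 and MBTPS1 were named after their values were seen. Coordinates are those of GENCODE 44 in hg38, and promoter windows those of RefSeq.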

Additional observations from a re-analysis of the deposited data

Results flagged for a closer look

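For 30 of the 40 genes the knockdown effect differed between the 4 lines by limma's F-test of the line by siRNA interaction (adjusted p over all 12816 genes tested). The same test passed for 45.0% of all genes, and the difference between PANC1 and the other lines cannot be told apart from that between 96 h and 72 h.

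In the ATF4 arm the adjusted p was 1.2e-08 for SLC7A5 and 1.2e-08 for PSAT1, 6.43e-08 for DDIT4, 2.65e-07 for SLC3A2 and 8.7e-07 for CEBPB. It was 3.13e-06 for ASNS, 1.49e-05 for TRIB3, 1.77e-05 for MTHFD2, 2.58e-05 for PPP1R15A and 6.11e-05 for SESN2. ATF4 itself had 0.00015, PHGDH 0.00641, SHMT2 0.0313 and DDIT3 0.0415. SLC7A5 and SLC3A2 fell in A549, ES2 and MV3 and did not pass in PANC1.

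In the ER arm the adjusted p was 1.88e-08 for HSP90B1, which fell most in PANC1, 2.69e-05 for CALR, 5.14e-05 for CANX and 0.000214 for HSPA5. It was 0.000696 for SEL1L, 0.000701 for PDIA6, 0.000804 for HYOU1 and 0.00288 for XBP1. DERL2 had 0.00639, DERL1 0.00701, SDF2L1 0.00734 and PDIA4 0.0101. ERN1 had 0.0117, CRELD2 0.0329, DNAJC3 0.0372 and ATF6 0.0472.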

How the results depend on the processing

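Of the 66 calls of a gene in a line, 66 kept direction and threshold with pseudocounts of 0.1 or 1 and with a filter at 1 FPKM, 65 with voom, 64 with median-of-ratios scaling, 61 at equal recovered reads (chosen after seeing the data), 59 without a filter and 56 at equal sums, where 6 reversed. In 46 of 66 the call held in every fit without 1 library, 20 were lost in at least 1, and 0 reversed. Calls over all genes moved in these fits as well. In A549, 1441 lower became 796 to 1036 and 1092 higher became 526 to 761. In PANC1, 2131 lower became 1237 to 1954 and 1796 higher became 1041 to 1888. The causes of the changes below were not tested. At equal sums the PANC1 log2 fold change became -0.18 for ASNS, -0.32 for CEBPB, -0.13 for CHAC1, -0.27 for DDIT3, -0.48 for DERL1 and -0.48 for PSAT1. The median of all PANC1 genes was then -0.68. Equal sums gave the PANC1 ATF4 arm 10 lower, 0 higher and a median of -0.57, the PANC1 ER arm 20 lower, 0 higher and -0.84, medians of -0.40 (ATF4 arm) and 0.13 (ER arm) in ES2, and 1 ER arm gene higher in MV3. Equal reads gave PANC1 3 ATF4 arm genes higher with a median of 0.0069, 13 ER arm genes lower, 0 higher and -0.30, and in MV3 medians of -0.34 (ATF4 arm) and -0.019 (ER arm) with 3 ER arm genes lower, and an ER arm median of 0.090 in ES2. With voom, 8 ATF4 arm genes were higher in PANC1, 5 ER arm genes lower in ES2 and 8 in MV3, and the MV3 ATF4 arm median was -0.43. Without a filter the A549 ATF4 arm median was -0.17, and 0 ER arm genes were higher in PANC1.

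Leaving out each library gave 3 to 4 ATF4 arm genes lower in A549, 0 to 2 lower and 2 to 6 higher in PANC1. For the ER arm it gave 2 to 4 lower in A549, 1 to 2 higher in ES2 with a median of 0.027 to 0.076, 3 to 7 lower and 1 to 3 higher in MV3, and 0 to 1 higher in PANC1 with a median of -0.21 to -0.11. Same-numbered libraries showed little shared deviation (correlations from -0.056 to 0.071). The labels do not say whether the numbers pair the samples. A small shared effect would not show in this check, so pairing stays undecided. With a replicate block, 51 of 66 calls remained. It gave 3 ATF4 arm genes lower in A549 and 1 in PANC1. For the ER arm it gave 1 lower and 1 higher in A549 and 0 higher in PANC1. Over all genes the block took A549 from 1441 lower and 1092 higher to 622 and 379. It took PANC1 from 2131 and 1796 to 1606 and 1381. Depth limits low genes most in A549, where CHAC1 rested on 1 to 6 reads per library.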
